A study of Mus musculus with 6 samples.

Results

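The genes examined were the Dishevelled genes and some other genes of planar cell polarity in cultured mouse cerebellar granule cells (GCs) after knockdown (KD) of YTHDF2. Members were chosen by name, as the rows of the table of counts that the annotation of GRCm38 assigns to Dvl1, Dvl2, Dvl3, Vangl2, Celsr1, Celsr2, Celsr3, Prickle1, Daam1 and Daam2. All 10 were among the 53421 genes of the table, and 9 of them had enough counts to be tested. GCs were dissociated from the cerebellum of C57BL/6 pups at postnatal day 8 according to the labels, and the paper's methods give a range of ages that ends on that day. Lentiviral short hairpin RNAs were used to infect the cultures, either 1 that targets Ythdf2 (the shYthdf2 group, n = 3) or a control hairpin (the shCtrl group, n = 3), and infected neurons of both groups were kept by puromycin. The names of the shYthdf2 libraries carry the number of 1 hairpin. Replicates have the numbers 1, 2 and 4 in both groups, and nothing in the labels says which pups or cultures they came from, so p-values measure only the spread between these libraries.

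Planar cell polarity is the branch of Wnt signaling that orients cells and growing axons within a tissue. It works through membrane complexes of Celsr cadherins with Frizzled receptors on one side of a cell contact and with Vangl and Prickle proteins on the other. Dishevelled proteins carry the signal from Frizzled into the cell, and the formins Daam1 and Daam2 link Dishevelled to the actin cytoskeleton. In neurons Wnt5a, Frizzled3, Vangl2, Celsr3 and Dishevelled are known for their part in axon growth and guidance. YTHDF2 is a reader of N6-methyladenosine (m6A) in mRNA that promotes the decay of the transcripts it binds. The study was about axon growth of GCs, and among other assays it used this RNA-seq to find transcripts that change after YTHDF2 KD.

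The sample titles assign knockdown and control the opposite way from the library names. Groups here follow the library names, and every direction below would be inverted if the titles were right. Ythdf2 itself was read at 499.6, 401 and 499.7 normalized counts in the shYthdf2 libraries (replicates 1, 2 and 4) and at 617, 839 and 627 in the shCtrl libraries, so that every library named shYthdf2 was below every library named shCtrl. The gap was widest in replicate 2. The mean was 67.3% of that in shCtrl, with a log2 change of -0.57 (SE 0.16, edgeR adjusted p = 0.125 by the Benjamini-Hochberg method), so the targeted gene did not pass the threshold. Normalized counts are counts scaled by TMM (trimmed mean of M values) to a common library of 18917881 counts. The libraries held 17246821 to 21546595 counts. Replicate 2 stood apart in both groups. Between replicates 1 and 4 the chi-square of the counts per degree of freedom was 3.39 in shYthdf2 and 4.79 in shCtrl, above the sampling noise of the counts, and against replicate 2 it was 33.7 to 56.8. The 14 markers of granule cells summed to 11183 to 11659 CPM (counts per 1000000 counts) in the shYthdf2 libraries and to 10718 to 11096 in the shCtrl libraries. Zic1 and Reln had the highest counts of that list. The estimate was higher for 10 of the markers and lower for 4. Among the lower were Neurod1 (log2 change -0.32, edgeR adjusted p = 0.124) and Cbln1 (-0.64, edgeR adjusted p = 0.140). Among the higher were Chn2 (0.96, edgeR adjusted p = 0.159) and Reln (0.27, edgeR adjusted p = 0.283). Cbln1 was read at 15865, 25430 and 15677 normalized counts in shCtrl replicates 1, 2 and 4, and at 12047 to 12308 in shYthdf2. Gabra6, Slc17a7 and Cbln3 had their highest counts in replicate 2 of both groups. Markers of other cells were read as well. The oligodendrocyte lineage summed to 914 to 1126 CPM with shYthdf2 and 320 to 1131 with shCtrl, and the list of astrocytes and Bergmann glia to 724 to 790 and 488 to 828. In both lists the highest shCtrl value was that of replicate 2. In such bulk RNA, more cells of a type and more RNA per cell cannot be told apart.

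After YTHDF2 KD, Dvl1 mRNA was at 64.4% of its level in shCtrl, and Dvl2 and Dvl3 at 82.7% and 78.6%, while Daam2, Celsr1, Daam1 and Vangl2 were at 181%, 146%, 124% and 119%. None of these differences passed an adjusted p of 0.05 in the edgeR quasi-likelihood test over all 6 libraries (0 of 9 members, with 5 at an unadjusted p under 0.05). Across all 17214 genes tested, 104 passed, or 0.604%. At an unadjusted p under 0.05, 4 members were higher (Daam2, Celsr1, Daam1 and Vangl2) and 1 was lower (Dvl1), beside 20.1% of all genes. By normalized counts, the groups did not overlap in 6 of the 9 members, beside 26.0% of all genes. Of these, 4 were above (Vangl2, Celsr1, Daam1 and Daam2) and 2 below (Dvl1 and Prickle1). As TPM (a gene's share of a library after division by its exon length), the groups of Dvl1 and Prickle1 overlapped. The median log2 change was 0.12 over the 9 members and 0.01 over all genes tested.

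**Figure D1:**
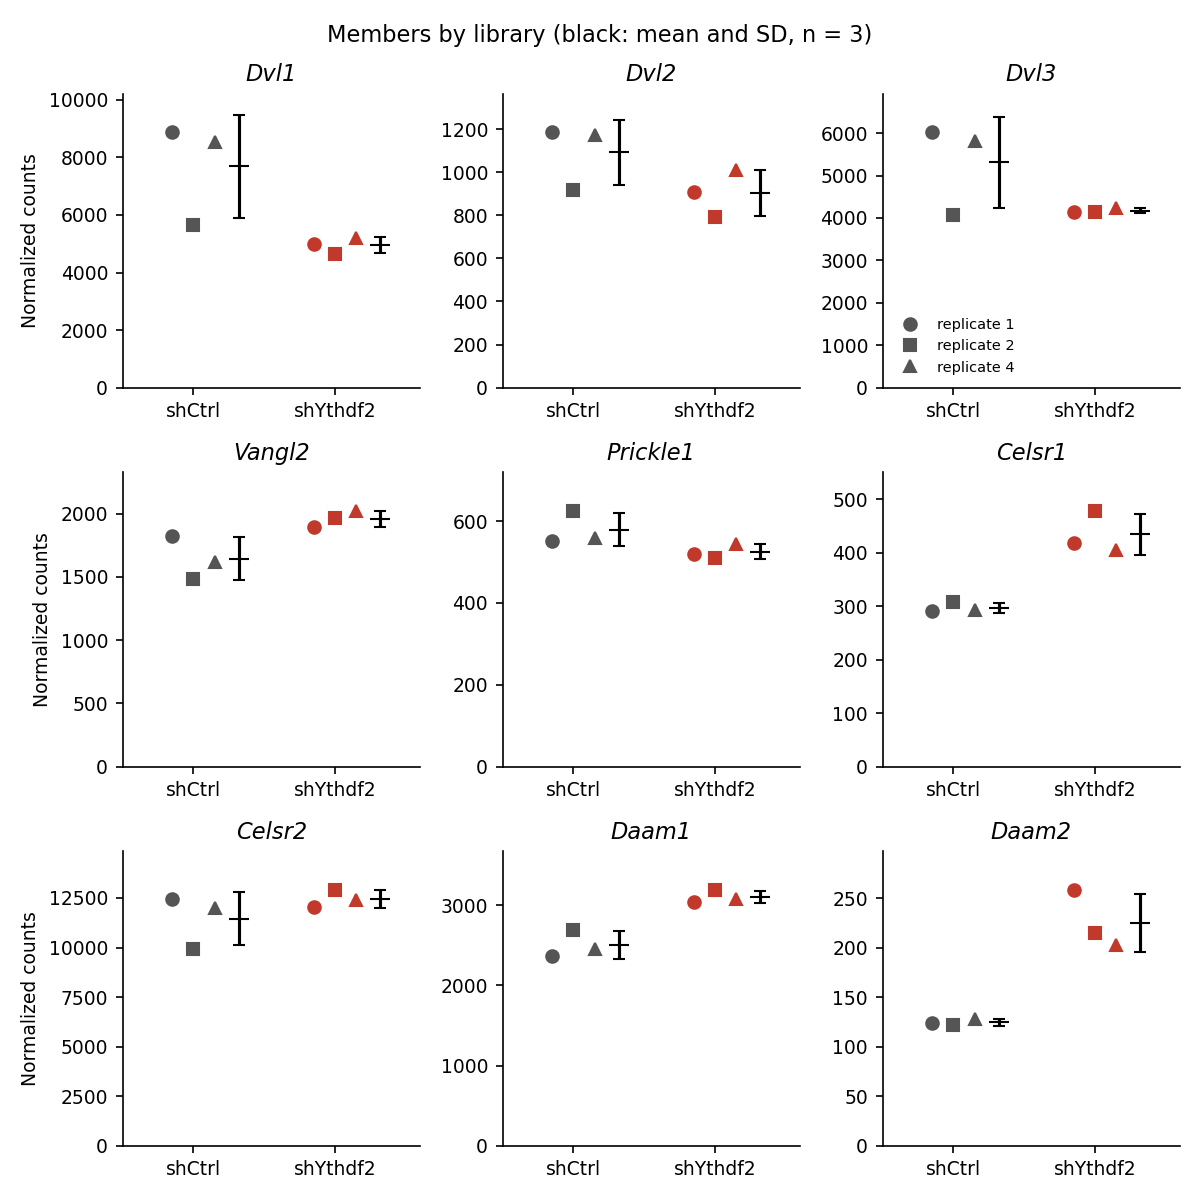
Normalized counts (y axes, each starting at 0) of the 9 tested members in each library of shCtrl (grey) and shYthdf2 (red), with the replicate number as the shape of the point and the mean and SD of 3 libraries in black. Dvl1 and Dvl3 in shCtrl replicate 2 (5635 and 4082) lie near the shYthdf2 libraries, whereas the groups of Celsr1, Daam1 and Daam2 are apart in every replicate.

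Levels of different genes were compared only as TPM, a gene's share of a library after division by its exon length. In the shCtrl libraries Dvl1 had the highest mean at 339 TPM, followed by Celsr2 at 218, Dvl3 at 182, Daam1 at 67.4, Vangl2 at 51.4, Dvl2 at 38.1 and Prickle1 at 29.0. Celsr1 at 5.88 TPM and Daam2 at 2.79 TPM were far below their paralogs. Within each of the 3 shCtrl libraries the order was the same for every pair of these neighbours. Over the libraries together, the ranges overlapped for Dvl1 and Celsr2, for Celsr2 and Dvl3, for Vangl2 and Dvl2, and for Dvl2 and Prickle1, and the ranges of all other neighbours were apart.

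Dishevelled proteins are the cytoplasmic hub of Wnt signaling. Dvl1 (chr4:155847402-155859303, plus strand of GRCm38) was read at 5006, 4650.3 and 5203 normalized counts in shYthdf2 replicates 1, 2 and 4 and at 8887, 5635 and 8547 in shCtrl. Replicates 1 and 4 of shCtrl stood far above all other libraries, and shCtrl replicate 2 was the closest to the shYthdf2 libraries without reaching them. The means were 4953 ± 280.1 and 7689.6 ± 1788 (SD, n = 3), and the log2 change was -0.63 (SE 0.18, 95% interval -1.05 to -0.22, edgeR adjusted p = 0.119). In the same numbered replicates the log2 difference was -0.83, -0.28 and -0.72, lower with shYthdf2 in 3 of 3 and smallest in replicate 2. As TPM the groups of Dvl1 overlapped, with 236, 202 and 246 in shYthdf2 and 398, 227 and 393 in shCtrl.

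Dvl3 (chr16:20516982-20534010, plus strand) was read at 4129.9, 4151 and 4239 normalized counts in shYthdf2 and at 6030.5, 4082 and 5815 in shCtrl. Its lowest library was shCtrl replicate 2, so the groups overlapped. Within replicates 1, 2 and 4 the log2 difference was -0.55, 0.02 and -0.46. The log2 change of Dvl3 was -0.35 (SE 0.15, 95% interval -0.71 to 0.01, edgeR adjusted p = 0.258). Dvl2 (chr11:70000595-70012301, plus strand), the least abundant Dishevelled gene, was read at 906, 794 and 1009.9 in shYthdf2 and at 1187, 919 and 1172 in shCtrl. In both groups replicate 2 was its lowest library, and shYthdf2 replicate 4 was above shCtrl replicate 2. Within replicates 1, 2 and 4 the log2 difference of Dvl2 was -0.39, -0.21 and -0.22, lower in 3 of 3. The log2 change of Dvl2 was -0.27 (SE 0.14, 95% interval -0.61 to 0.06, edgeR adjusted p = 0.331). Genes on the other strand overlap Dvl1 (Tas1r3), Dvl2 (Acadvl), Dvl3 (Gm16618) and Daam1 (Gm7985), and the strand setting of the counts is not given in the sources used here. These partners had at most 179, 497, 50 and 10 counts in a library, beside at least 4800, 821, 3960 and 2236 for the members.

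The composition of the Dishevelled pool needs no scaling between libraries. Per length, Dvl1 made up 56.0%, 54.6% and 55.9% of Dvl1, Dvl2 and Dvl3 together in shYthdf2 replicates 1, 2 and 4, and 61.2%, 59.0% and 61.0% in shCtrl. Here shCtrl replicate 2 was no longer near the shYthdf2 libraries, and the difference within each replicate number was -5.20, -4.42 and -5.11 percentage points. The means were 55.5 ± 0.767% and 60.4 ± 1.19% (SD, n = 3), a difference of -4.91 points with p = 0.1 in a two-sided exact permutation test, the smallest p that 3 libraries against 3 can give. The share of Dvl3 was 36.5 ± 1.32% with shYthdf2 and 32.7 ± 0.566% with shCtrl, and that of Dvl2 was 8.01 ± 0.606% and 6.92 ± 0.626%. The summed level of the 3 genes was 410 ± 36.8 TPM and 560 ± 152 TPM (SD, n = 3), with p = 0.3 in the exact permutation test.

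Vangl2 and Prickle1 form the complex opposite Frizzled. Vangl2 (chr1:172000960-172028444, minus strand), a membrane protein of the polarity complex, was read at 1893, 1965 and 2021 normalized counts in shYthdf2 and at 1822, 1486 and 1618 in shCtrl. The lowest shYthdf2 library exceeded the highest shCtrl library, by little. The log2 change was 0.25 (SE 0.10, 95% interval 0.01 to 0.50, unadjusted p = 0.0423 and adjusted p = 0.231 in edgeR). By replicate number (1, 2 and 4) Vangl2 differed by 0.06, 0.40 and 0.32 on the log2 scale. Prickle1 (chr15:93499114-93595891, minus strand), the cytoplasmic partner of Vangl2, went the other way, with 519, 509.6 and 545 in shYthdf2 and 552, 625 and 559 in shCtrl. All its shYthdf2 libraries were below those of shCtrl, but the difference was small, at -0.14 on the log2 scale (SE 0.11, 95% interval -0.40 to 0.11, edgeR adjusted p = 0.514). In replicates 1, 2 and 4 Prickle1 differed by -0.09, -0.29 and -0.04. As TPM its groups overlapped, with 28.1, 25.4 and 29.7 in shYthdf2 and 28.4, 29.0 and 29.6 in shCtrl.

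The Celsr genes encode large adhesion receptors that bind each other across the contact between cells. Celsr1 (chr15:85898929-86033777, minus strand) was read at 419, 479 and 405 normalized counts in shYthdf2 and at 291, 307 and 293 in shCtrl. The shCtrl libraries lay close together, and all shYthdf2 libraries lay above them. The means were 434 ± 38.9 and 297 ± 8.94 (SD, n = 3), and the log2 change was 0.55 (SE 0.13, 95% interval 0.26 to 0.84, edgeR adjusted p = 0.0839), with 0.53, 0.64 and 0.47 in replicates 1, 2 and 4. Celsr2 (chr3:108390851-108415552, minus strand) was read at 12047, 12909.5 and 12379 in shYthdf2 and at 12435, 9915 and 12004 in shCtrl. The groups overlapped for Celsr2, with shCtrl replicate 2 alone below the rest. Its log2 change was 0.12 (SE 0.12, 95% interval -0.15 to 0.39, edgeR adjusted p = 0.605).

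Relative to Celsr2, Celsr1 was higher with shYthdf2. The row of Celsr3 was nearly empty, so the share of Celsr1 is in effect its share of Celsr1 and Celsr2 together. Per length it was 3.51%, 3.73% and 3.31% in shYthdf2 replicates 1, 2 and 4, and 2.39%, 3.14% and 2.49% in shCtrl. The means were 3.52 ± 0.211% and 2.67 ± 0.408% (SD, n = 3), a difference of 0.848 points with p = 0.1 in the exact permutation test. The groups did not overlap, although shCtrl replicate 2 came close to the shYthdf2 libraries.

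Celsr3 (chr9:108826320-108852969, plus strand), which is known for its part in axon tract formation, had 1, 0 and 0 counts in shYthdf2 replicates 1, 2 and 4 and 2, 0 and 0 in shCtrl. It was the only member removed by the filter on low counts. The genes on either side were as empty, with at most 1 count per library for Nckipsd and 2 for Slc26a6, and with 0 for Tmem89. Genes farther out had counts, at 359 to 476 for Ip6k2 and 67 to 457 for Uqcrc1. The row of Celsr3 was therefore not read as a level of the gene, and the cause was not tested.

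Daam1 and Daam2 are formins, which nucleate actin filaments and are activated through Dishevelled. Daam1 (chr12:71831078-71992333, plus strand) was read at 3040.1, 3193 and 3085 normalized counts in shYthdf2 and at 2369, 2696 and 2450.1 in shCtrl. All shYthdf2 libraries were above all shCtrl libraries, and the difference was alike in the 3 replicates, at 0.36, 0.24 and 0.33 on the log2 scale. The fitted log2 change was 0.31 (SE 0.09, 95% interval 0.10 to 0.52, edgeR adjusted p = 0.132). Daam2 (chr17:49456022-49564343, minus strand) was read at 259, 215 and 203 in shYthdf2 and at 124, 122 and 128 in shCtrl. The shCtrl libraries were nearly equal and the groups were widely apart. The means were 226 ± 29.2 and 125 ± 3.29 (SD, n = 3), the largest log2 change among the 9 tested members at 0.86 (SE 0.16, 95% interval 0.47 to 1.24, unadjusted p = 0.00105 and adjusted p = 0.0615 in edgeR).

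Daam2 was also higher relative to Daam1. Per length it stood at 7.05%, 5.57% and 5.46% of Daam1 in shYthdf2 replicates 1, 2 and 4, and at 4.33%, 3.74% and 4.34% in shCtrl. The log2 ratio of Daam2 to Daam1 was -4.06 ± 0.205 with shYthdf2 and -4.60 ± 0.122 with shCtrl (SD, n = 3), a difference of 0.54 with p = 0.1 in the exact permutation test. Within replicates 1, 2 and 4 the difference was 0.70, 0.57 and 0.33, higher in 3 of 3.

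**Figure D2:**
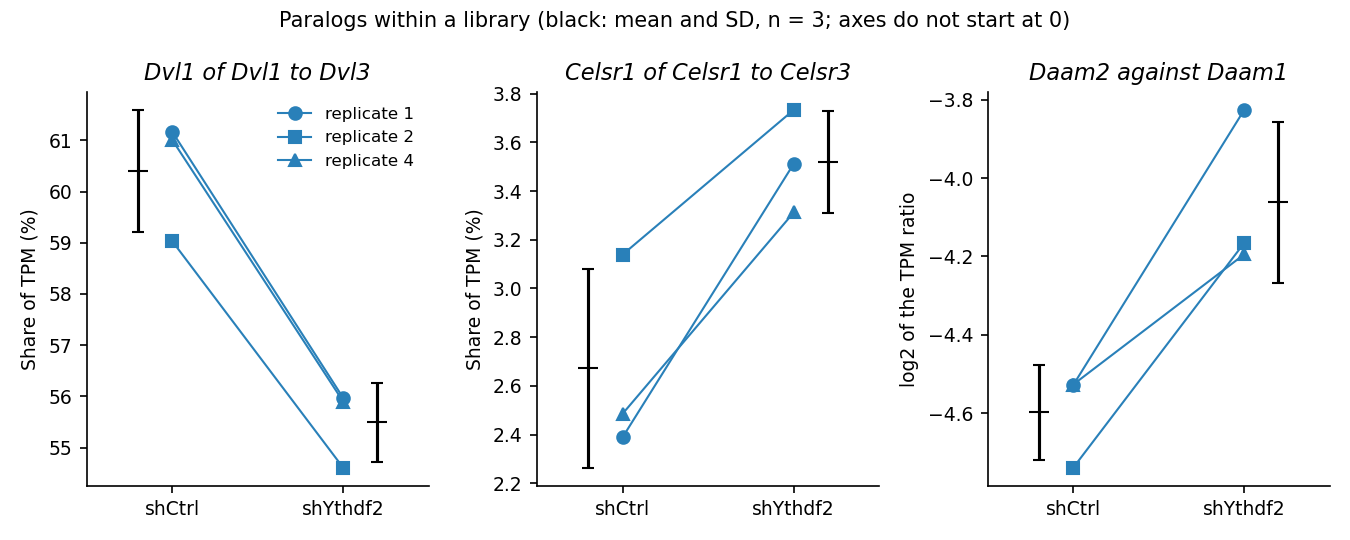
Share of Dvl1 among the Dishevelled genes and of Celsr1 among the Celsr genes, of which Celsr3 was nearly empty (percent of summed TPM) and log2 ratio of Daam2 to Daam1 in each library, with lines between libraries of the same replicate number and the mean and SD of 3 libraries in black. The lines fall in all 3 replicates for Dvl1 and rise in all 3 for Celsr1 and Daam2.

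**Figure D3:**
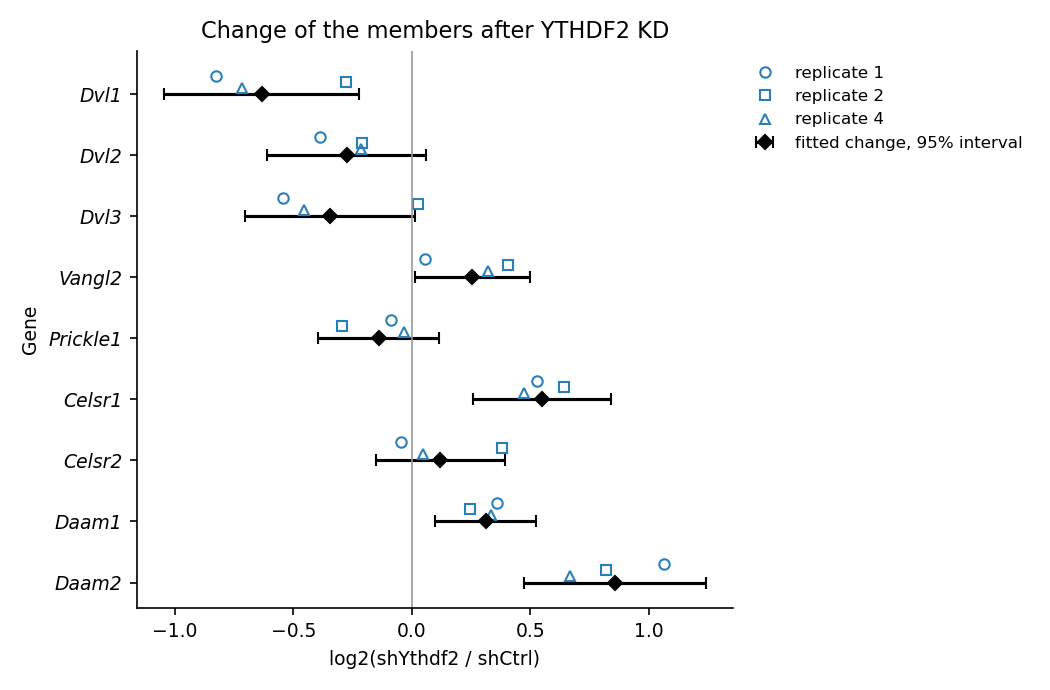
Log2 change from shCtrl to shYthdf2 (x axis) of the 9 tested members, as the edgeR estimate with its 95% interval (black) and as the difference within each replicate number (blue). The intervals of Dvl1, Vangl2, Celsr1, Daam1 and Daam2 leave out 0, and replicate 2 of Dvl1, Dvl3 and Celsr2 stands away from replicates 1 and 4.

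Daam2 and Celsr1 had few counts, and markers of several other cells had higher estimates with shYthdf2. Markers of proliferating GC progenitors summed to 131 to 149 CPM with shYthdf2 and 87.6 to 127 with shCtrl, with a higher estimate for 10 of 10 tested markers (median log2 change 0.70) and an unadjusted p under 0.05 for Cenpf alone. Markers of Purkinje cells summed to 269 to 330 and 199 to 234 CPM, with a higher estimate for 4 of 7. Most of that sum was Gad1, which interneurons also express, and Calb1, Slc1a6 and Pcp2 had lower estimates (log2 change -0.45, -0.33 and -0.22). Markers of GABAergic interneurons summed to 481 to 529 and 341 to 423 CPM, with a higher estimate for 6 of 8, of which only Tfap2b passed the threshold (log2 change 0.83, edgeR adjusted p = 0.0496). For the oligodendrocyte lineage 11 of 11 markers had a higher estimate (median 0.67), and for astrocytes and Bergmann glia 9 of 11. The lower ones there were Slc1a2 (log2 change -1.44, edgeR adjusted p = 0.0552) and Gja1 (-0.05). Slc1a2 had the smallest p of that list, and its groups did not overlap. The summed levels of the oligodendrocyte list and the astrocyte list overlapped between the groups through shCtrl replicate 2 alone. In replicates 1, 2 and 4 the oligodendrocyte lineage summed to 914, 1126 and 939 CPM with shYthdf2 and to 329, 1131 and 320 with shCtrl. Astrocytes and Bergmann glia summed to 790, 724 and 779 CPM with shYthdf2 and to 488, 828 and 500 with shCtrl. For microglia the estimate was higher for 7 of 7 tested markers, at 22.9 to 64.3 and 10.9 to 46.2 CPM, and for vascular cells and fibroblasts for 10 of 10, at 171 to 422 and 131 to 318 CPM. Unipolar brush cells (582 to 617 and 540 to 620 CPM, 1 of 5 markers with a higher estimate) and multiciliated ependymal cells (41.6 to 51.4 and 26.9 to 43.1 CPM, 6 of 9) complete the lists. No marker of these lists was at 0 in every library. The part of these cells in the higher counts of Daam2 and Celsr1 was not tested.

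The calls of the members depended on replicate 2. In shCtrl, Dvl1 in replicate 2 differed by -0.63 on the log2 scale from the mean of replicates 1 and 4, and in shYthdf2 by -0.13. With a term for replicate 2 in the fit, 5 members passed an adjusted p of 0.05 in edgeR (Dvl1, Dvl2, Celsr1, Daam1 and Daam2), beside 22.1% of all genes. Without shCtrl replicate 2 again 5 members passed, beside 18.3% of all genes, with Dvl3 in place of Dvl2. In that fit the log2 change of Dvl1 was -0.82 (adjusted p = 0.0025) and that of Dvl3 -0.50 (adjusted p = 0.00652).

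Without replicate 2 of both groups, 7 members passed (all tested members but Celsr2 and Prickle1), but so did 52.7% of all genes, and each group then held only replicates 1 and 4, which lay close together. Leaving out shYthdf2 replicate 2 gave 1 call (Daam2, adjusted p = 0.0488, beside 4.70% of all genes). DESeq2 gave 3 (Dvl1, Celsr1 and Daam2, beside 7.67%), limma-voom gave 0, and edgeR without the filter on low counts gave 1 (Dvl1, adjusted p = 0.0423, beside 1.98%). With the replicate number as a block no member passed, beside 1.35% of all genes, at an adjusted p of 0.0554 for Daam2, 0.0571 for Celsr1, 0.0617 for Daam1 and 0.0620 for Dvl1. The sign of each change was the same in all 15 alternatives for 8 of the 9 tested members, Celsr2 being the exception.

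**Figure D4:**
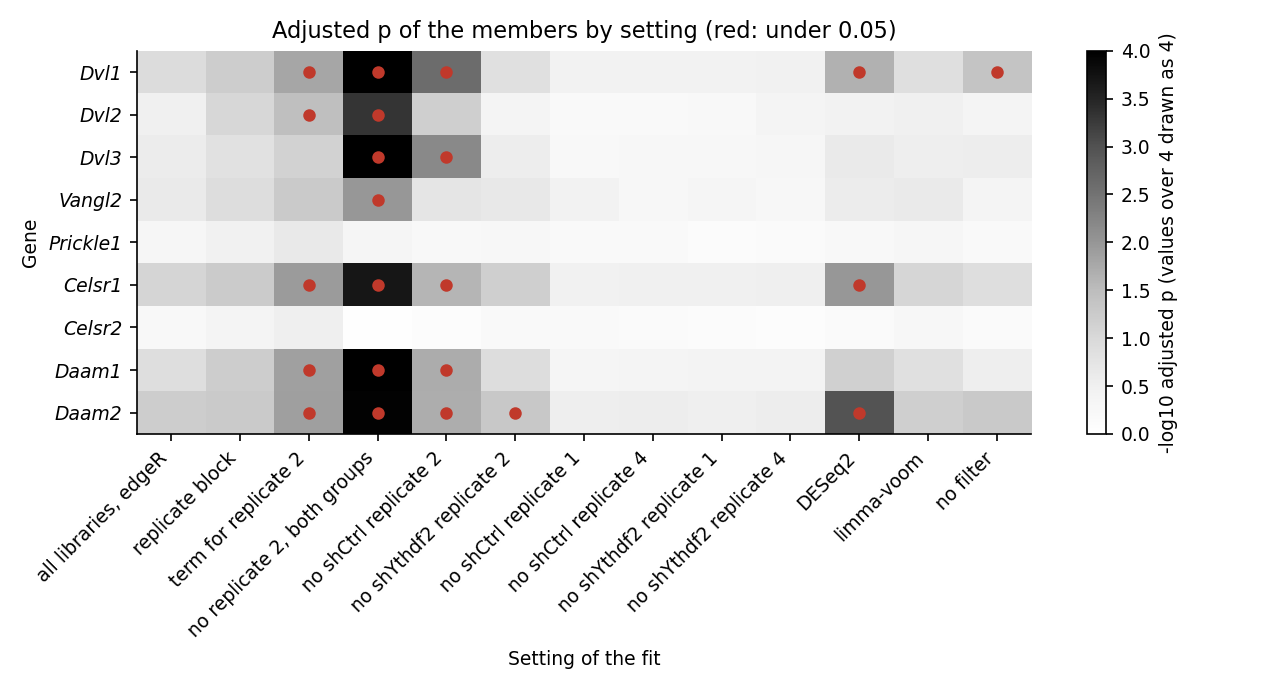
Adjusted p of the 9 tested members (rows) in 13 settings of the fit (columns), drawn as -log10 in grey, with a red point where the adjusted p is under 0.05. Red points gather in the columns that model or leave out replicate 2, and rows Prickle1 and Celsr2 have none.

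The ligand and the receptor upstream of these genes were read in the same libraries. Wnt5a was read at 313, 324 and 307 normalized counts in shYthdf2 and at 149, 191 and 106 in shCtrl, so that all shYthdf2 libraries were above all shCtrl libraries. Its log2 change was 1.08 (SE 0.22, edgeR adjusted p = 0.0679). Fzd3, a Frizzled receptor of growing axons, was at 4559 ± 83.0 and 4295 ± 327 (SD, n = 3), a log2 change of 0.09 (edgeR adjusted p = 0.656).

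Of 38 other genes of planar polarity and Wnt5a signaling, 36 were tested, and Fzd6 was at 0 in every library. None passed an adjusted p of 0.05 in edgeR or limma-voom, and 2 did in DESeq2 (Wnt5a and Ror1), beside 7.67% of all genes. At an unadjusted p under 0.05, 3 of the 36 were higher and 5 were lower, beside 20.1% of all genes, 7 did not overlap between the groups, beside 26.0%, and the median log2 change was 0.04. After Wnt5a, those with the smallest p were Ptk7, a receptor-like pseudokinase of the polarity pathway (log2 change -0.46, adjusted p = 0.145), Prickle3, a paralog of Prickle1 (0.58, adjusted p = 0.147), and Ror1, a receptor of Wnt5a (-0.86, adjusted p = 0.159). Ptk7 and Prickle3 did not overlap between the groups. Ror1 did, since shCtrl replicate 2 (501) lay near the shYthdf2 libraries (517, 419 and 525) and far from shCtrl replicates 1 and 4 (1079 and 1065), as for Dvl1 and Dvl3.

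Of 27 genes that modify, bind or turn over Dishevelled, 26 were tested and 0 passed in edgeR (0 in limma-voom and 4 in DESeq2, which were the genes named here, beside 7.67% of all genes). At an unadjusted p under 0.05, 5 of the 26 were higher and 3 lower, beside 20.1% of all genes. In 9 of the 26 the groups were apart, beside 26.0%, and the median log2 change was -0.02. Cyld, a deubiquitinase known to act on Dishevelled, was higher by 0.56 on the log2 scale (adjusted p = 0.0584, and 0.0452 with the replicate block, in edgeR). Its counts were 1120.1, 1190.4 and 1103 in shYthdf2 and 722, 835 and 766 in shCtrl, apart in every replicate. Ccdc88c, which encodes the Dishevelled binding protein Daple, had a log2 change of 0.55 (adjusted p = 0.0794), and the ubiquitin ligase gene Hecw1 had 0.33 (adjusted p = 0.0976). Dact3, an antagonist that binds Dishevelled, had -0.73 (adjusted p = 0.119).

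All 13 other formins of the list were tested and 0 passed in edgeR (0 in limma-voom and 1 in DESeq2, Fhod3, beside 7.67% of all genes). At an unadjusted p under 0.05, 2 of the 13 were higher and 1 lower, beside 20.1% of all genes, and 5 did not overlap between the groups, beside 26.0%, with a median log2 change of 0.18. Fhod3, a formin known for actin assembly in heart muscle, was read at 208, 284 and 236 in shYthdf2 and at 560.0, 407 and 501 in shCtrl, opposite in direction to Daam1 and Daam2. Its log2 change was -1.01 (edgeR adjusted p = 0.0572). Diaph3 (1.35, adjusted p = 0.119) and Fmn1 (0.85, adjusted p = 0.140) had the largest positive estimates among the 4 formins named and rested on 8.85 to 38.7 and 23.9 to 58.0 normalized counts per library. Fmnl2 had a log2 change of 0.23 (edgeR adjusted p = 0.250).

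Genes whose pattern over the 6 libraries was most like that of Dvl1 were Supt6 (Pearson r = 0.9996), Ttbk1 (0.9996), Slc4a3 (0.9996), Nol6 (0.9994) and Ap1b1 (0.9987), among 12556 genes with a symbol and at least 50 normalized counts. Ttbk1 showed the pattern plainly, with 5217, 4844 and 5455 normalized counts in shYthdf2 replicates 1, 2 and 4 and 9537, 5904 and 8932 in shCtrl. Most like Daam2 were Bicd1 (0.9963), Prex2 (0.9959), Klf8 (0.994), Pias2 (0.9929) and Gpr137c (0.991). The points of these correlations are the same 6 libraries, and they are given as a description only.

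Sites for m6A often carry the letters GGACT and often lie near the stop codon, so these letters were searched in the annotated transcripts of the members. For each gene 1 coding transcript was searched, the one ranked first by the APPRIS tag of the annotation and, among equals, the longest. Longer annotated transcripts of Dvl1, Dvl3 and Daam2 were not searched. The search used the RNA strand only, and a window of 200 bases that is centred on the end of the stop codon. Of 12955 transcripts of tested genes with a full window, 25.0% held the motif there. Of the members it was present in the window of Celsr1, Celsr2 and Prickle1, 1 time each, and 2 times in Daam2, whose searched transcript (3646 bases) ends within the window. The sites are shown because they are the only ones of the members in this window, with the motif in capitals, 5′ to 3′ on the minus strand of GRCm38.
Celsr1, 59 bases after the stop codon, chr15:85900625-85900649: agcctgcctgGGACTgctgcctatg
Celsr2, before the stop codon, chr3:108393014-108393038: cggtggatgaGGACTcctctggctc
Prickle1, 50 bases after the stop codon, chr15:93500385-93500409: catttagcctGGACTtcgaccttgt
Daam2, before the stop codon, chr17:49458605-49458629: ttttcgataaGGACTtaagcaagtt
Daam2, 15 bases after the stop codon, chr17:49458499-49458523: tggagactggGGACTaaccacagac

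The window held no such letters in Dvl1, Dvl2, Dvl3, Vangl2 or Daam1. Over whole transcripts Celsr1 had 24 sites, or 2.21 per kilobase, above the interquartile range of all transcripts searched (0.653 to 1.53, median 1.06 per kilobase, 13709 transcripts). Dvl2, at 1.79 per kilobase, and Dvl3, at 1.59, were above that range too. Celsr2 (1.51), Daam1 (1.02), Prickle1 (0.965) and Daam2 (0.823) were within it. Dvl1 had 5 sites, all before the end of the stop codon, or 1.49 per kilobase, and Vangl2 had 4, or 0.613 per kilobase. A match describes the letters only, and these libraries carry no measurement of m6A.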

How the data were processed

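RNA-seq of 3 shYthdf2 and 3 shCtrl libraries was re-analysed from the table of counts per gene that the authors deposited, as whole numbers without normalization. By the paper's methods, the authors mapped reads to GRCm38 and counted them with HTSeq, whereas the submitters' processing notes name mm9 and Bowtie 0.12.2, and the labels and the methods name different library kits. Gene names and positions came from the GENCODE annotation of GRCm38, which gave a symbol to 52489 of the 53421 rows, and 785 of the others are named as genes outside the annotation.

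The filterByExpr function, given the group, a minimum count of 10 and a minimum total of 15, left 17214 genes with 99.8% of all counts. These were scaled by TMM and tested by the quasi-likelihood method of edgeR 4.0.16 in R 4.3.3, with Benjamini-Hochberg adjustment over all genes tested. Single values were compared by two-sided exact permutation tests. TPM used the union of annotated exons. Totals of 17246821 to 21546595 counts limit precision for genes with few counts. The edgeR step was tested on simulated data with planted changes larger than those of the members and no shift of replicate 2. That test therefore does not cover changes of the size seen in the members.

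Deviations from the group means correlated at 0.251, 0.362 and 0.291 between libraries that share replicate numbers 1, 2 and 4, so the numbers were also used as a block. Alternatives were RLE factors, no normalization factor, DESeq2 1.42.0, limma-voom 3.58.1, 2 other filters, a term for replicate 2, and left-out libraries. The members and lists were chosen with earlier results of these data known. Named were the members, Ythdf2, Wnt5a, Fzd3, the 4 genes with the smallest p in each list and the 5 most like Dvl1 and Daam2. Tfap2b, Cenpf and the other single markers of cell types, Fzd6 and the neighbours of Celsr3 were named after their values were seen.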

Additional observations from a re-analysis of the deposited data

How the results depend on the processing

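The number of members past an adjusted p of 0.05 was 0 over all libraries, 3 with DESeq2, 1 without a filter on low counts, 5 with a term for replicate 2, 7 without replicate 2 of both groups, and 0 to 5 when 1 library was left out. For all genes it was 104, and 1321 with DESeq2, 24 with limma-voom, 639 without the filter, 232 with the replicate block, 3799 with the term for replicate 2, 9186 without replicate 2 of both groups, and 0 to 3239 with 1 library left out (3239 without shCtrl replicate 2 and 829 without shYthdf2 replicate 2). The share of all genes tested was 7.67% with DESeq2, 1.98% without the filter and 1.35% with the replicate block. It was 22.1% with the term, 52.7% without replicate 2 of both groups and 18.3% without shCtrl replicate 2. For the other polarity genes (36 tested, or 37 without the filter) the number was 2 with DESeq2, 1 without the filter and 9 with the term. It was 19 without replicate 2 of both groups and 0 to 6 with 1 library left out. For the Dishevelled partners (26 tested, or 27 without the filter) it was 4, 1, 9 and 20 in the same settings. It was 1 with the replicate block (Cyld) and 0 to 8 with 1 library left out. For the formins (13 tested) it was 1, 1, 3 and 8, and 0 to 3 with 1 library left out. The replicate block changed no other call among these genes. Celsr2 changed sign only without replicate 2 of both groups, to -0.0052 on the log2 scale. With 1 library left out, the difference in the Dvl1 share was -5.59 to -4.47 points, that in the Celsr1 share 0.707 to 1.08 points and that in the log2 ratio of Daam2 to Daam1 0.418 to 0.603, and none changed direction in any alternative. Why replicate 2 stood apart was not tested. Median changes of all genes moved by at most 0.04 between scalings, and depth limits the genes with few counts, such as Daam2, Prickle3, Diaph3 and Fmn1.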
